A study of Arabidopsis thaliana with 128 samples.

Results

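The genes described here are 9 zinc finger genes of Arabidopsis thaliana that respond to stress, taken by locus identifier from the 28775 genes of the read table. Of these, 5 encode C2H2 zinc finger transcription factors: ZAT6 (AT5G04340), ZAT10 (AT1G27730), ZAT11 (AT2G37430), ZAT12 (AT5G59820) and AZF2 (AT3G19580). The other 4 encode proteins with a pair of CCCH zinc fingers in tandem: SZF1 (AT3G55980), SZF2 (AT2G40140), CTH (AT2G25900) and AT5G44260. All 9 were found, and all 9 passed the filters on low values at 0 min and over the time course.

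The ZAT and AZF proteins bind DNA through their C2H2 fingers, and many of them carry an EAR motif, a short segment that recruits corepressors and makes the protein a repressor. Their mRNAs are rapidly induced by cold, salt, wounding, strong light and reactive oxygen species, and are known for being short-lived. The CCCH proteins of this family have an arginine-rich stretch before the tandem fingers, and members have been linked to salt and hormone responses and to cytoplasmic RNA granules.

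RNA was sequenced from whole seedlings of 4 genotypes through a course of cordycepin, an adenosine analog that stops transcription, so that the fall of each mRNA can be followed. VCS (VARICOSE) is the scaffold protein of the mRNA decapping complex, and SOV is an exoribonuclease of the DIS3L2 type that works from 3′ ends. The double mutant, called vcs sov here, was vcs-7 in the Col-0 background, which carries the sov allele of that accession. The vcs group was vcs-7 with an SOV transgene of Landsberg erecta origin. The sov group was plain Col-0, and the group called WT was Col-0 with the same SOV transgene, so both functional-SOV groups rest on a transgene. Seedlings were 5 d old, grown at 22 °C in constant light, and were vacuum infiltrated with 1 mM cordycepin in all genotypes. Ribosomal RNA was removed, and 8 times between 0 and 480 min were sampled, with 4 biological replicates of pooled seedlings in each of the 32 groups. P-values therefore measure the spread between these pools. Per the labels, a pair of tubes swapped in replicate 3 at 60 min, in vcs and vcs sov, was put right by the submitters.

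Libraries held 11.5 to 37.3 M reads (M, 1000000) assigned to genes. In nuclear genes fell 73.5% of reads in vcs sov, 63.2% in vcs, 51.3% in sov and 49.1% in WT at 0 min, the rest being plastid and mitochondrial reads, so levels are given per 1000000 reads of nuclear genes (nuclear RPM) unless stated otherwise, and RPM alone counts all reads. VCS itself had a mean of 9.13 RPM in vcs sov and 4.49 in vcs, against 66.7 in sov and 66.2 in WT. SOV had 182.1 RPM in vcs sov, 516.5 in vcs, 21.0 in sov and 98.5 in WT, and the labels do not say that the sov allele lowers its own RNA. All 15 markers of 7 seedling tissues were above 0 in every library at 0 min. Summed levels of the 2 xylem markers lay at 69.7 to 134.8 RPM in vcs sov, 35.9 to 46.2 in vcs, 19.1 to 23.9 in sov and 18.5 to 20.4 in WT. The 4 root markers summed to 80.0 to 107.1 RPM in vcs sov, 149.3 to 180.0 in vcs, 120.4 to 167.7 in sov and 97.7 to 134.0 in WT, and the 2 photosynthetic markers to 6939 to 9388 RPM in vcs sov, 13650 to 19790 in vcs, 11330 to 15370 in sov and 10230 to 13350 in WT. These sums hide opposite directions. Mean RPM in vcs sov against sov was lower for the root markers IRT1 (5.06 against 52.5) and PHT1;1 (25.4 against 54.1). It was higher for CASP1 (40.2 against 19.3) and SCR (18.6 against 9.42). In vcs against WT, mean RPM was higher for the photosynthetic marker RBCS1A (14120 against 9758) and lower for CAB2 (1708 against 2086). The part that such differences between genotypes have in the results was not tested, and in whole seedlings fewer cells of a type cannot be told apart from less RNA per cell.

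Of the 9 genes, ZAT6, ZAT10, ZAT11, ZAT12 and AT5G44260 are single-exon genes in the RefSeq annotation of TAIR10.1, and none of the 9 overlaps another annotated gene. ZAT6 lies on chromosome 5 at 1216058-1217362 (minus strand), ZAT12 on chromosome 5 at 24102814-24103794 (plus) and AT5G44260 on chromosome 5 at 17829618-17831336 (minus). ZAT10 lies on chromosome 1 at 9648021-9649323 (minus) and AZF2 on chromosome 3 at 6802903-6804296 (minus). ZAT11 lies on chromosome 2 at 15706285-15707224 (plus), as do CTH at 11041331-11043256 (plus) and SZF2 at 16771997-16774734 (plus), while SZF1 is on chromosome 3 at 20776220-20778952 (plus). The encoded C2H2 proteins are short, at 162 residues for ZAT12, 178 for ZAT11, 227 for ZAT10, 238 for ZAT6 and 273 for AZF2. Among the CCCH proteins, SZF1 with 647 and SZF2 with 597 residues are the long pair, beside 381 for AT5G44260 and 315 for CTH.

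The 250 bases upstream of each gene's start were searched on both strands for motifs of stress promoters. The W-box, bound by WRKY factors, was searched in a form with the core TTGACC, which was found in 4 of the 9 windows (ZAT11, AZF2, SZF1, SZF2), against 12.2% of all 27443 protein-coding windows. The form with the core TTGACT was found in 3 (SZF1, SZF2, AT5G44260), against 19.1%. The core of the rapid stress response element, CGCGTT, was in none of the 9 and in 2.59% of all windows, and the G-box CACGTG in none and in 6.49%. The letters TATAAA stood in 2 of the 9 (SZF2, CTH) and in 47.3% of all windows. The windows with the first of these forms are printed from RefSeq TAIR10.1, 5′ to 3′ on the gene's strand, with the W-box letters and TATAAA in capitals on either strand (overlapping copies run together), because they include the closest pair of promoters among the 9 genes.
SZF1 (chr3:20775970-20776219, plus strand): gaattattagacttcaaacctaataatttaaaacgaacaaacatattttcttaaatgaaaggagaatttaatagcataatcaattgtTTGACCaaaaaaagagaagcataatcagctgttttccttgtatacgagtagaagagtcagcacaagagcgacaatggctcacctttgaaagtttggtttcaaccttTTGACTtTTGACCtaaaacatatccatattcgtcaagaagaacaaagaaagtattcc
SZF2 (chr2:16771747-16771996, plus strand): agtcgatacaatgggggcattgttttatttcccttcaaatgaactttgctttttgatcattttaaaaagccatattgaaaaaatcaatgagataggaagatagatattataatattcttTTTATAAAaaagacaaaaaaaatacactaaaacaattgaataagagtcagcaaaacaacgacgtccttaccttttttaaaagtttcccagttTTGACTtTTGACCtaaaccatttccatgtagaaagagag
ZAT11 (chr2:15706035-15706284, plus strand): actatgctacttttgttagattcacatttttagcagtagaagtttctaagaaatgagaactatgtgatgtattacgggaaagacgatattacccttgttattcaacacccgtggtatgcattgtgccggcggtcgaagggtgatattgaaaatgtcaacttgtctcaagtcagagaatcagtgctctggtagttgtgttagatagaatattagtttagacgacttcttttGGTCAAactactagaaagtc
AZF2 (chr3:6804297-6804546, minus strand): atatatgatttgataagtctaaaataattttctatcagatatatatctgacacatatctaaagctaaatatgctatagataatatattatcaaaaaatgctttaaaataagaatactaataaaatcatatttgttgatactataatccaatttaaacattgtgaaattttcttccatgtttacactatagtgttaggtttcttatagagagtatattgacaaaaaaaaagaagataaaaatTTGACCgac

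SZF1 and SZF2 shared an unbroken stretch of 19 identical bases, ttTTGACTtTTGACCtaaa, in which both W-box forms stand side by side. It began 59 bases before the start of SZF1 and 41 bases before that of SZF2. The longest identical stretch in any other pair of the 9 windows was 13 bases, between ZAT6 and ZAT11. A match of letters is a description and shows no binding.

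Before cordycepin, the C2H2 genes ZAT6, ZAT12, AZF2 and ZAT10 and the CCCH gene SZF2 rose in vcs sov against sov, while ZAT11 fell. ZAT6 is a C2H2 factor known from phosphate and salt responses and ZAT12 one known from oxidative and high-light stress. ZAT6 had 111.7, 163.5, 117.5 and 166.3 nuclear RPM in the 4 vcs sov libraries, 104, 105.5, 97.0 and 115.3 in vcs, 30.6, 21.2, 26.5 and 29.1 in sov, and 48.4, 34.0, 35.1 and 35.7 in WT. ZAT12 had 95.5, 119.5, 79.4 and 100.2 nuclear RPM in vcs sov, 77.1, 59.3, 52.3 and 58.9 in vcs, 29.5, 23.0, 18.8 and 20.4 in sov, and 35.2, 25.5, 27.6 and 28.3 in WT. For both genes every vcs sov and every vcs library was above every sov and WT library, and for ZAT12 vcs sov and vcs did not overlap either. For this and later statements on groups without overlap, the share of all genes that separate so is not given here. The log2 difference of vcs sov against sov was 2.35 ± 0.145 (SE, n = 4 libraries a group) for ZAT6, with a limma adjusted p of 1.6e-10, and 2.09 ± 0.15 for ZAT12 (limma adjusted p = 1.16e-09).

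**Figure D1:**
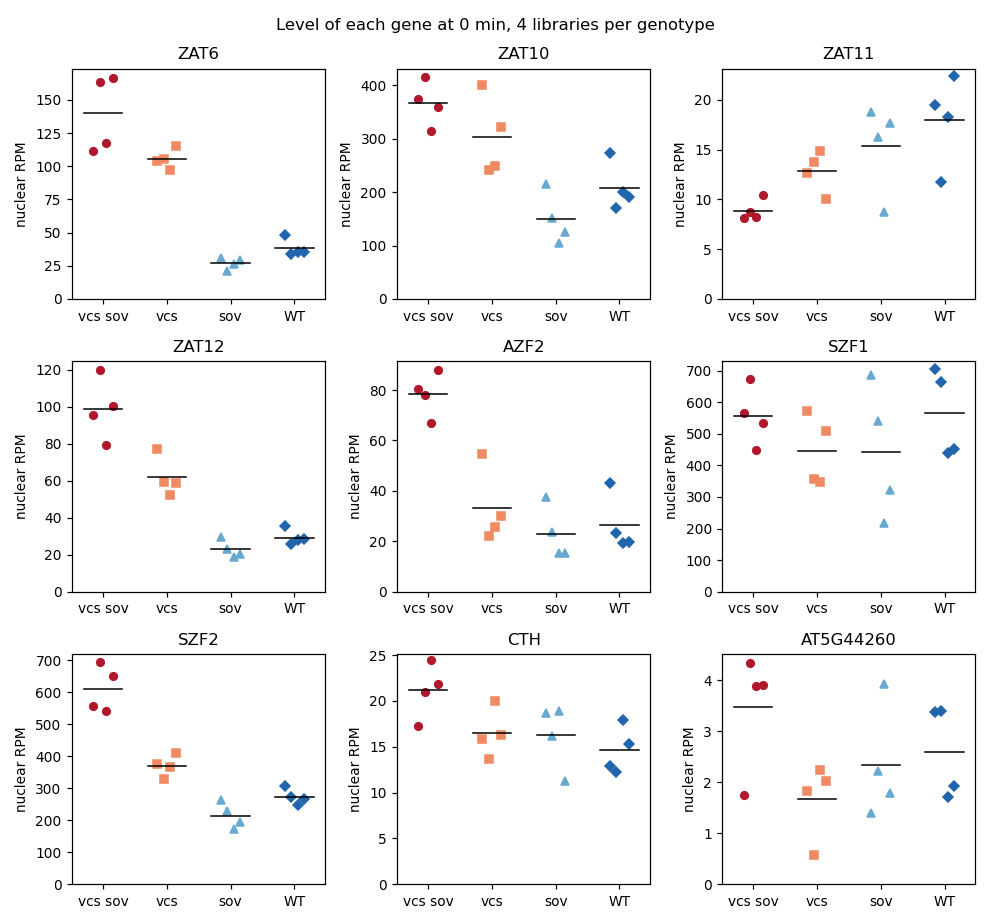
Levels of the 9 genes before cordycepin, in nuclear RPM on linear axes from 0, by genotype, with a point for each of the 4 libraries and a bar for their mean. ZAT6, ZAT12 and SZF2 separate both vcs genotypes from sov and WT without overlap, AZF2 stands apart in vcs sov, and SZF1 and CTH overlap between genotypes. The share of all genes without overlap is not given.

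AZF2, a C2H2 repressor known from abscisic acid and salt responses, was high in the double mutant. Its level was 80.6, 77.9, 66.9 and 87.8 nuclear RPM in vcs sov, 54.8, 22.0, 25.4 and 30.0 in vcs, 37.6, 23.7, 15.3 and 15.1 in sov, and 43.2, 23.3, 19.2 and 19.6 in WT. All 4 vcs sov libraries were above the other 12, among which the genotypes overlapped and replicate 1 was the highest each time. The log2 difference was 1.84 ± 0.33 against sov (limma adjusted p = 0.000163) and 1.32 ± 0.33 against vcs (limma adjusted p = 0.00372, lost without replicate 2), whereas vcs against WT gave 0.31 ± 0.33 (limma adjusted p = 0.457).

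ZAT10, also called STZ, is a C2H2 repressor with roles in salt, drought and photo-oxidative stress. Its level was 374.5, 415.6, 314.8 and 358.6 nuclear RPM in vcs sov, 401, 241.9, 249.6 and 321.8 in vcs, 214.5, 152.4, 105.5 and 126.2 in sov, and 273.4, 169.3, 199.6 and 191.7 in WT. Here vcs sov lay above sov and WT without overlap, and vcs overlapped with WT through replicate 1 of WT. The log2 difference of vcs sov against sov was 1.33 ± 0.203 (limma adjusted p = 1.76e-05). That of vcs against WT was 0.53 ± 0.203 (limma adjusted p = 0.038), a call lost when libraries were centred on the nuclear median, in edgeR, and without replicate 2 or 4.

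ZAT11, a C2H2 factor known from nickel and hydrogen peroxide responses, ran the other way. It had 8.10, 8.73, 8.22 and 10.4 nuclear RPM in vcs sov, 12.6, 13.8, 14.9 and 9.99 in vcs, 18.8, 16.3, 8.74 and 17.7 in sov, and 19.5, 11.8, 18.3 and 22.4 in WT. Replicate 3 of sov lay within the vcs sov range. The difference of vcs sov against sov was -0.71 ± 0.215 on the log2 scale (limma adjusted p = 0.00708), and it was no longer called without replicate 1 or on RPM as deposited, which gave -0.21 (limma adjusted p = 0.375).

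Among the CCCH genes, the paralogous pair SZF1 and SZF2 differed in their starting levels between genotypes. SZF2 had 556.5, 693.6, 541.8 and 649.3 nuclear RPM in vcs sov, 374.6, 330, 367 and 409.2 in vcs, 264.4, 227.7, 172.4 and 193.3 in sov, and 306.9, 271.3, 246.2 and 265.6 in WT. SZF1 had 565.6, 675.6, 449.9 and 533.7 nuclear RPM in vcs sov, 573.5, 358.4, 348.3 and 507.9 in vcs, 685.8, 540.7, 217.5 and 322.4 in sov, and 706.4, 665.9, 440.7 and 452.9 in WT. SZF2 fell into steps without overlap, with vcs sov above vcs and vcs above the remaining genotypes, while SZF1 covered much the same range in each. For vcs sov against sov the log2 difference was 1.52 ± 0.123 for SZF2 (limma adjusted p = 4e-09) and 0.45 ± 0.301 for SZF1 (limma adjusted p = 0.192). On RPM as deposited, where all genes had a median log2 difference of 0.64 in that comparison, SZF1 was called at 0.97 (limma adjusted p = 0.00763). On that scale the median of all genes was 0.186 in vcs sov against vcs, 0.498 in vcs against WT and 0.126 for the interaction described further on.

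CTH and AT5G44260, the remaining CCCH genes, had low levels that overlapped between genotypes. CTH averaged 21.1 ± 2.97 nuclear RPM in vcs sov, 16.5 ± 2.62 in vcs, 16.3 ± 3.54 in sov and 14.6 ± 2.58 in WT (SD, n = 4 each). Its log2 difference of 0.38 ± 0.162 for vcs sov against sov had a limma adjusted p of 0.0426, lost in edgeR, with median centring, and without replicate 2, 3 or 4. AT5G44260 averaged 3.46 ± 1.16 nuclear RPM in vcs sov, 1.66 ± 0.748 in vcs, 2.34 ± 1.11 in sov and 2.60 ± 0.913 in WT (SD, n = 4 each), and was called in vcs sov against vcs alone, at 0.90 ± 0.33 (limma adjusted p = 0.0281, lost without replicate 2 or 4). In vcs sov against sov its difference was 0.50 ± 0.33 (limma adjusted p = 0.188), and 0.84 on RPM as deposited (limma adjusted p = 0.0122).

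**Figure D2:**
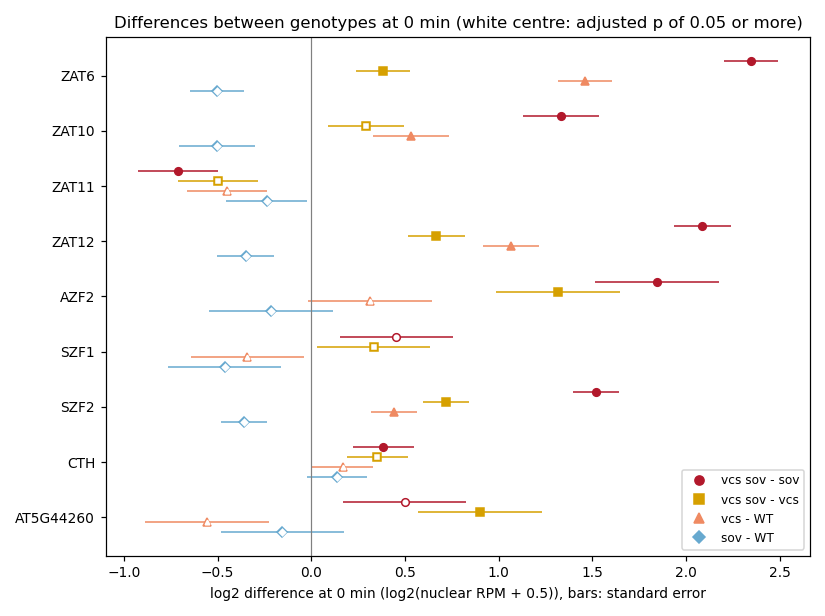
Log2 differences at 0 min for each gene in the genotype comparisons, with bars of 1 SE from the limma fit and white centres where the adjusted p was 0.05 or more. ZAT6, at 2.35 for vcs sov against sov, stands farthest to the right, and ZAT11, at -0.71, is the called gene on the left of 0.

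Counted over the 9 genes, 6 rose and 1 fell in vcs sov against sov, where 42.5% of the 19343 genes tested were called higher and 27.1% lower, and the median log2 difference was 1.33 for the 9 genes and 0.166 for all genes. In vcs sov against vcs, 5 of 9 rose (ZAT6, ZAT12, AZF2, SZF2 and AT5G44260) and none fell, against 26.6% higher and 28.8% lower among all genes, with medians of 0.383 and -0.016. SZF2 rose in it by 0.72 ± 0.123 (limma adjusted p = 8.68e-05), ZAT12 by 0.67 ± 0.15 (limma adjusted p = 0.00112) and ZAT6 by 0.38 ± 0.145 (limma adjusted p = 0.0319, lost without replicate 2, 3 or 4). In vcs against WT, 4 of 9 rose (ZAT6, ZAT10, ZAT12 and SZF2) and none fell, against 36.3% higher and 13.1% lower, with medians of 0.313 and 0.174. ZAT6 rose in it by 1.46 ± 0.145 (limma adjusted p = 3.8e-07), ZAT12 by 1.07 ± 0.15 (limma adjusted p = 1.75e-05) and SZF2 by 0.44 ± 0.123 (limma adjusted p = 0.00645), the last of these lost with median centring, in edgeR and without replicate 4. Other settings called ZAT11 lower in vcs against WT. These were edgeR (-0.68, adjusted p = 0.0196), median centring (-0.66, limma adjusted p = 0.02) and leaving out replicate 2 (-0.67, limma adjusted p = 0.04). Median centring also called AT5G44260 lower (-0.79, limma adjusted p = 0.0346), and RPM as deposited called CTH higher (0.51, limma adjusted p = 0.00964). In vcs sov against vcs, ZAT11 was called lower without replicate 4 (-0.68, limma adjusted p = 0.0327). These comparisons share groups and are not independent of each other.

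With functional VCS, the sov allele made no called difference. In sov against WT, limma called 0 of the 9 genes and edgeR 0, while 4 (ZAT6, ZAT10, ZAT12 and SZF2) had an unadjusted p under 0.05. For this and later counts of unadjusted p-values, the share of all genes is not given here. Among all genes, limma called 0.0103% higher and 0.031% lower. The 9 differences ran between -0.51 for ZAT10 and 0.14 for CTH, 8 of them negative, with a median of -0.351 beside 0.00578 for all genes. Though not called, ZAT6 was lower in sov than in WT without overlap, at 21.2 to 30.6 against 34.0 to 48.4 nuclear RPM.

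Whether the loss of vcs moved a gene by a different amount with the sov allele than with the SOV transgene was tested as an interaction, the log2 difference of vcs sov against sov minus that of vcs against WT. It was positive and called for 5 of 9 genes, where 19.1% of all genes were called higher and 21% lower. The interaction was 1.53 ± 0.467 for AZF2 (limma adjusted p = 0.0177), 1.08 ± 0.174 for SZF2 (limma adjusted p = 0.000114) and 1.02 ± 0.213 for ZAT12 (limma adjusted p = 0.0011). It was 0.89 ± 0.205 for ZAT6 (limma adjusted p = 0.00237) and 0.80 ± 0.287 for ZAT10 (limma adjusted p = 0.0353). Without replicate 2, 3 or 4 the AZF2 and ZAT10 calls were lost, and edgeR lost that of ZAT10. SZF1, at 0.80 ± 0.426 (limma adjusted p = 0.151), and AT5G44260, at 1.06 ± 0.467 (limma adjusted p = 0.0807), missed the threshold, though AT5G44260 was called on RPM as deposited (limma adjusted p = 0.0431) and without replicate 3 (limma adjusted p = 0.0361).

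Levels of different genes can be compared only per length, for which the authors' deposited table gives mean RPKM at 0 min. In that table ZAT10 was the most abundant of the 9 in vcs sov at 237.1 RPKM, followed by SZF2 at 159.3 and SZF1 at 155.4. In WT the same table has SZF1 first at 106.6 RPKM, then ZAT10 at 92.4 and SZF2 at 48.4, and at the low end CTH at 3.42 and AT5G44260 at 0.693. The authors' deposited table also gives DESeq2 log2 fold changes for vcs sov against sov, of 2.21 for ZAT6, 1.96 for ZAT12, 1.66 for AZF2, 1.37 for SZF2, 1.17 for ZAT10 and -0.87 for ZAT11. In the same authors' deposited table CTH, at 0.26, had an adjusted p of 0.152.

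After cordycepin, ZAT10 was the 1 mRNA of the 9 called lower in WT at the earliest time, 7.5 min. It was at 208.5 ± 45.2 nuclear RPM at 0 min, 123.8 ± 30.2 at 7.5 min, 96.7 ± 9.40 at 15 min and 50.5 ± 5.06 at 30 min (SD, n = 4 each). In vcs sov it was at 365.9 ± 41.7, 347.1 ± 65.7, 319 ± 51.6 and 211.7 ± 30.1 nuclear RPM at the same times. At 15 min the single libraries had 263.5, 379.6, 291.7 and 341 nuclear RPM in vcs sov, 286.1, 242.7, 269.4 and 269.5 in vcs, 86.9, 78.9, 97.6 and 88.3 in sov, and 90.2, 87.7, 101.2 and 107.7 in WT. In WT all 4 libraries at 15 min lay below all 4 at 0 min, and the same held in sov, while in vcs sov and in vcs the ranges at the 2 times overlapped. The log2 change at 15 against 0 min was -0.21 ± 0.155 in vcs sov (limma adjusted p = 0.999), -0.16 ± 0.155 in vcs (limma adjusted p = 1), -0.72 ± 0.155 in sov (limma adjusted p = 0.000755, lost without replicate 1) and -1.09 ± 0.155 in WT (limma adjusted p = 4.75e-08). At 7.5 min ZAT10 was the 1 gene of the 9 called lower in WT, where 0.358% of all genes were, at -0.76 ± 0.155 (limma adjusted p = 0.000775), a call lost without replicate 1. AZF2 had 13.6 to 18.8 nuclear RPM at 7.5 min and 19.2 to 43.2 at 0 min. SZF2 had 193.3 to 240.7 nuclear RPM at 7.5 min and 246.2 to 306.9 at 0 min. Neither gene overlapped between these times, but limma called neither, and 5 of the 9 genes had an unadjusted p under 0.05. With replicate added to the fit as a block, AZF2 (limma adjusted p = 0.0217) and SZF2 (limma adjusted p = 0.0461) were called lower. The shares of all genes without overlap, or at such an unadjusted p, are not given here.

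At 15 min, 5 of the 9 genes had fallen in WT, where 1.83% of the 19855 genes tested were called lower. Besides ZAT10 these were AZF2 at -0.82 ± 0.225 (limma adjusted p = 0.0158), SZF1 at -0.69 ± 0.186 (limma adjusted p = 0.0134), SZF2 at -0.50 ± 0.142 (limma adjusted p = 0.0228) and ZAT12 at -0.48 ± 0.135 (limma adjusted p = 0.0203). Each of these 4 calls was lost with at least 2 of the 4 replicates left out in turn, and the ZAT10 call was not. The median change of the 9 genes was -0.48 in WT, beside -0.0139 for all genes. In sov, ZAT10 alone was called lower, where 2.02% of all genes were. With replicate added to the fit as a block, SZF1 (limma adjusted p = 0.0389) and SZF2 (limma adjusted p = 0.0321) were called lower in sov as well. In vcs sov and in vcs limma called none of the 9 at 15 min, with 1 gene each at an unadjusted p under 0.05 (CTH lower in vcs sov, ZAT11 higher in vcs), where 0.468% and 1.19% of all genes were called in either direction.

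SZF1 levels were split by genotype at 15 min, although its 15 min change was called in no comparison between genotypes. Its libraries at 15 min had 483.6, 651.2, 520.3 and 740.3 nuclear RPM in vcs sov, 424.3, 427.9, 402.8 and 517.6 in vcs, 360.5, 217.4, 299.8 and 317.7 in sov, and 369.9, 362, 311.9 and 331.2 in WT. Every library of both vcs genotypes was above every library of sov and WT at this time, although the starting levels had overlapped. The share of all genes that separate in this way is not given here. In the authors' deposited table, which sets 0 min to 1 and scales to stable mRNAs, SZF1 stood at 1.04 in vcs sov, 0.96 in vcs, 0.63 in sov and 0.57 in WT at 15 min. ZAT10 in the authors' deposited table stood at 0.85 in vcs sov, 0.85 in vcs, 0.55 in sov and 0.44 in WT at that time.

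The genotypes' 15 min changes were also compared with each other. For vcs against WT the difference was 0.93 ± 0.219 for ZAT10 (limma adjusted p = 0.0607), 0.70 ± 0.263 for SZF1 (limma adjusted p = 0.871) and 0.69 ± 0.191 for ZAT12 (limma adjusted p = 0.215). Limma called 0 of 9, where 0.0453% of all genes were called higher and 0.0151% lower, while 6 of the 9 had an unadjusted p under 0.05 and edgeR called 1. The share of all genes at such an unadjusted p is not given here. This fit held no term for replicate. With replicate added as a block, ZAT10 (limma adjusted p = 0.00236) and ZAT12 (limma adjusted p = 0.0135) were called. The median of the 9 differences was 0.686, beside -0.000876 for all genes. For vcs sov against sov limma and edgeR called 0, with 2 genes (ZAT10 and SZF1) at an unadjusted p under 0.05 and 0.116% of all genes called higher and 0.161% lower. For vcs sov against vcs and for sov against WT both tools called 0 of 9, with 0 genes at an unadjusted p under 0.05 in each, where 0.0101% and 0% of all genes were called in either direction.

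**Figure D3:**
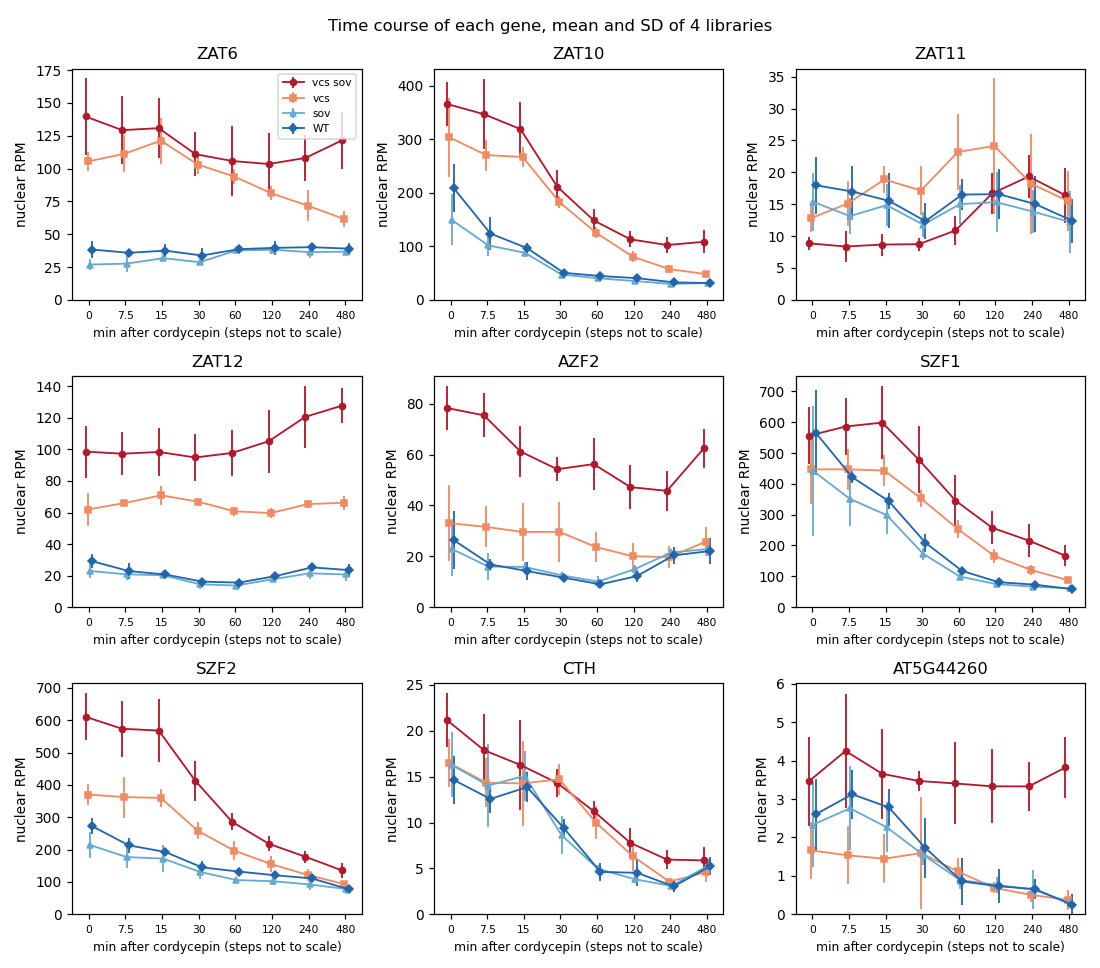
Mean nuclear RPM of the 9 genes at the 8 times after cordycepin, by genotype, with bars of 1 SD over 4 libraries and time steps that are not to scale. SZF1 and SZF2 run down to 480 min in all genotypes, CTH is higher at 480 than at 240 min in vcs, sov and WT, ZAT12 and AZF2 are lowest at 60 min in sov and WT, and AT5G44260 stays level in vcs sov, at 3.46 nuclear RPM at 0 min and 3.82 at 480 min.

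Over the whole course, a change in nuclear RPM is a change in the share of the nuclear reads that are left, and a slowly decaying mRNA can gain share without gaining molecules. Over the 7 later times and 9 genes, 63 tests a genotype, 27 were called in vcs sov (4 higher and 23 lower), 28 in vcs (2 higher and 26 lower), 35 in sov (4 higher and 31 lower) and 38 in WT (none higher). The same tests over all genes were called higher in 7.21% in vcs sov, 6.16% in vcs, 7.86% in sov and 8.04% in WT and lower in 19.3% in vcs sov, 27.4% in vcs, 33.2% in sov and 31.6% in WT. Scaled to 50 reference genes, 36 were called in vcs sov, 37 in vcs, 46 in sov and 53 in WT, all lower. These reference genes were picked for the highest mean slopes in these same libraries, so the scale itself shifts other genes towards lower calls. The higher calls on nuclear RPM thus depended on the scale, and the reference scale cannot decide whether they were gains. At 480 against 0 min, 4 fell in vcs sov, 6 in vcs, 5 in sov and 7 in WT, where 47.4%, 65.6%, 67.9% and 66.8% of all genes were called lower, and the median log2 change of all genes was -0.302, -0.702, -0.829 and -0.784 on nuclear RPM and -1.06, -1.13, -1.49 and -1.43 on the reference scale. The WT call of ZAT11 was lost without replicate 1, 2, 3 or 4, and edgeR gave 0.20 (adjusted p = 0.483). The WT call of ZAT12 was lost without replicate 1, 3 or 4, and edgeR called ZAT12 higher, at 0.42 (adjusted p = 0.00785).

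The C2H2 genes took different paths after 30 min. ZAT10 was at its lowest means at 240 or 480 min, with 108.4 ± 21.2 nuclear RPM in vcs sov, 48.0 ± 3.97 in vcs, 31.4 ± 5.92 in sov and 31.2 ± 4.23 in WT at 480 min. At 240 min it had 102.4 ± 15.2 in vcs sov, 57.4 ± 7.65 in vcs, 29.5 ± 5.38 in sov and 32.6 ± 3.97 in WT (SD, n = 4 each). ZAT6 in WT was at 38.3 ± 6.78 nuclear RPM at 0 min and 39.0 ± 4.67 at 480 min, a change of 0.03. Other settings called it in opposite directions, at -0.94 on the reference scale (limma adjusted p = 5.02e-10) and at 0.76 in edgeR (adjusted p = 1.47e-05). In sov it gained share by 0.51 ± 0.142 on the log2 scale at 120 min (limma adjusted p = 0.0011), which turned to -0.40 on the reference scale (limma adjusted p = 0.00442). In vcs, where it had started higher, ZAT6 fell by 480 min, at -0.78 ± 0.142 (limma adjusted p = 6.83e-07), while edgeR gave -0.14 (adjusted p = 0.386).

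ZAT12 and AZF2 had their lowest means at 60 min in sov and WT, and higher ones afterwards. ZAT12 in WT stood at 29.2 ± 4.22 nuclear RPM at 0 min, 15.5 ± 1.04 at 60 min, 19.6 ± 1.47 at 120 min and 23.5 ± 4.11 at 480 min. Its difference of 480 against 120 min was 0.24 ± 0.135 (limma adjusted p = 0.117), and edgeR called it at 0.69 (adjusted p = 0.000104). On the reference scale it was 0.05 (limma adjusted p = 0.782). In the authors' deposited table of scaled means, ZAT12 in WT stood at 0.430 at 60 min, 0.489 at 120 min and 0.421 at 480 min, its lowest value there. AZF2 in WT stood at 26.3 ± 11.4 nuclear RPM at 0 min, 8.95 ± 1.54 at 60 min, 12.2 ± 2.49 at 120 min and 22.1 ± 5.19 at 480 min (SD, n = 4 each). AZF2 libraries had 25.4, 14.4, 23.3 and 25.3 nuclear RPM at 480 min in WT, against 13.8, 8.55, 12.8 and 13.7 at 120 min, higher in 4 of 4 replicates with the lowest at 480 min above the highest at 120 min. The log2 difference of 480 against 120 min was 0.82 ± 0.225 in WT (limma adjusted p = 0.00114) and 0.60 ± 0.225 in sov (limma adjusted p = 0.0186), among 6.72% and 5.96% of all genes called higher. Scaled to the reference genes it was 0.58 in WT (limma adjusted p = 0.0178) and 0.46 in sov (limma adjusted p = 0.0698), and the sov call was also lost on RPM as deposited and without replicate 3 or 4. The same difference was 0.41 ± 0.225 in vcs sov (limma adjusted p = 0.169) and 0.37 ± 0.225 in vcs (limma adjusted p = 0.153). EdgeR called both, at 0.54 in vcs sov (adjusted p = 0.0488) and 0.72 in vcs (adjusted p = 0.009). Differences between genotypes in this late change were not tested. Over all 9 genes, limma called 2 in vcs sov, 6 in vcs, 2 in sov and 5 in WT between 120 and 480 min, in either direction, against 29.9%, 58.1%, 58.9% and 60.3% of all genes, and edgeR called 5, 5, 3 and 4.

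ZAT11, which had started lowest in vcs sov, gained share in both vcs genotypes. In vcs sov it stood at 8.87 ± 1.07 nuclear RPM at 0 min, 16.7 ± 3.26 at 120 min and 19.4 ± 3.40 at 240 min, and in WT at 17.98 ± 4.50, 16.6 ± 3.97 and 15.0 ± 4.41 at those times (SD, n = 4 each). The log2 change at 120 min was 0.86 ± 0.246 in vcs sov (limma adjusted p = 0.00287) and 0.81 ± 0.246 in vcs (limma adjusted p = 0.0034). On the reference scale no rise of ZAT11 was called, and its change in vcs sov at 480 min, 0.82 on nuclear RPM, became -0.03.

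The CCCH genes SZF1, SZF2 and CTH fell in all 4 genotypes by 120 min, when 6 of the 9 genes were called lower in vcs sov, 7 in vcs, 7 in sov and 7 in WT, against 30.8%, 44.7%, 52% and 48.5% of all genes. Of these calls at 120 min, edgeR lost ZAT6 in vcs sov and ZAT6, AZF2 and AT5G44260 in vcs. It also lost ZAT12 and AZF2 in sov and ZAT12 in WT. The vcs call of AT5G44260 was lost without replicate 1, 3 or 4, and the sov call of AZF2 without replicate 1, 2 or 4. SZF1 changed at that time by -1.12 ± 0.186 in vcs sov, -1.40 ± 0.186 in vcs, -2.43 ± 0.186 in sov and -2.77 ± 0.186 in WT on the log2 scale, with the largest limma adjusted p at 4.87e-07. SZF2 changed by -1.48 ± 0.142 in vcs sov, -1.26 ± 0.142 in vcs, -1.05 ± 0.142 in sov and -1.17 ± 0.142 in WT, with the largest limma adjusted p at 2.3e-10. So the spread between genotypes was wide for SZF1 and narrow for its paralog. Late CTH levels averaged 5.88 ± 1.44 nuclear RPM in vcs sov, 4.58 ± 1.05 in vcs, 5.28 ± 0.798 in sov and 5.24 ± 0.976 in WT at 480 min. At 240 min they averaged 5.97 ± 1.01 in vcs sov, 3.56 ± 0.435 in vcs, 3.095 ± 0.174 in sov and 3.05 ± 0.637 in WT (SD, n = 4 each). In sov and in WT every CTH library at 480 min was above every library at 240 min, a difference that was not tested. For 480 against 120 min, CTH had a log2 difference of 0.41 ± 0.19 in sov (limma adjusted p = 0.0544) and 0.23 ± 0.19 in WT (limma adjusted p = 0.303). EdgeR called both, at 0.91 in sov (adjusted p = 0.00113) and 0.66 in WT (adjusted p = 0.0248). They were 0.25 in sov and 0.03 in WT on the reference scale. AT5G44260 fell by 2.07 ± 0.298 in WT at 480 min (limma adjusted p = 8.45e-10), by 1.74 ± 0.298 in sov (limma adjusted p = 1.15e-07) and by 1.26 ± 0.298 in vcs (limma adjusted p = 9.41e-05), but had a change of 0.16 ± 0.298 in vcs sov (limma adjusted p = 0.643). On the reference scale the vcs sov change was -0.56 (limma adjusted p = 0.0177). Its counts were small, with 202 reads over the 4 vcs sov libraries at 480 min against 17 in vcs, 10 in sov and 8 in WT, so the late levels outside vcs sov are near the limit of 3 reads a library.

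Decay was also measured as the slope of log2 level on time in each of the 16 courses over 0 to 120 min, scaled to the 50 reference genes, and given as a half-life where the slope was below 0 by more than its SD. Before scaling, the median slope of the reference genes was 0.274 per hour in vcs sov, 0.245 in vcs, 0.358 in sov and 0.318 in WT. The scale thus differed between genotypes, and it enters each half-life and each slope difference. SZF1 had slopes of -0.95 per hour in vcs sov, -1.07 in vcs, -1.70 in sov and -1.75 in WT, or half-lives of 63.3 min in vcs sov, 55.9 in vcs, 35.4 in sov and 34.3 in WT. In WT only 0.3% of the 15289 genes with a slope fell more steeply than SZF1, and 1.8% more steeply than ZAT10, while the median slope of all genes was -0.51 per hour. SZF2 had half-lives of 55.0 min in vcs sov, 60.7 in vcs, 63.4 in sov and 66.9 in WT, the opposite order, which did not hold over 0 to 30 min. The slope of SZF1 was flatter by 0.75 ± 0.094 in vcs sov against sov (limma adjusted p = 7.68e-07) and by 0.68 ± 0.094 in vcs against WT (limma adjusted p = 1.95e-05). For SZF2 the difference was -0.14 ± 0.065 (limma adjusted p = 0.0527) in vcs sov against sov, called under other scales, later windows and another filter at -0.14 to -0.29 but 0.01 and not called over 0 to 60 min. In vcs against WT it was -0.09 ± 0.065 (limma adjusted p = 0.288), called on nuclear RPM at -0.17. SZF1 and SZF2 were not tested against each other.

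In vcs sov against sov, 4 of the 8 genes tested were flatter and 1 steeper, where 70% of all genes were called flatter and 1.55% steeper, and the median difference was 0.251 for the 8 genes and 0.227 for all. Flatter with SZF1 were ZAT11 at 0.54 ± 0.133 (limma adjusted p = 0.00231), CTH at 0.38 ± 0.094 (limma adjusted p = 0.00114) and ZAT12 at 0.33 ± 0.06 (limma adjusted p = 4.73e-05). ZAT6 was steeper by -0.33 ± 0.065 (limma adjusted p = 0.000129), with half-lives of 116 min in vcs sov and 325 in sov. The half-life of 325 min reaches past the 120 min window, from sov courses with slopes of -0.288 to -0.0669 per hour. Over 0 to 30 min the calls of ZAT6, ZAT11 and CTH were lost. Over 30 to 120 min those of ZAT6, CTH and ZAT12 were lost. AZF2 was called steeper in that window, at -0.26 (limma adjusted p = 0.0132). Over 0 to 60 min AZF2 (0.57, limma adjusted p = 0.0211) and ZAT10 (0.60, limma adjusted p = 0.0149) were called flatter. AT5G44260 was below the 2 RPM filter of these slopes, and with a filter of 0.5 RPM it was flatter in vcs sov than in sov by 0.37 ± 0.128 (limma adjusted p = 0.016).

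In vcs against WT, 3 of 8 were flatter (SZF1, ZAT11 and ZAT12) and 1 steeper (ZAT6), where 27.4% of all genes were flatter and 4.64% steeper. ZAT11 differed by 0.41 ± 0.133 (limma adjusted p = 0.0304), ZAT12 by 0.175 ± 0.06 (limma adjusted p = 0.0278) and ZAT6 by -0.22 ± 0.065 (limma adjusted p = 0.0116), and each of these 3 calls was lost without 2 of the 4 replicates in turn (ZAT11 without 2 or 4, ZAT12 without 3 or 4, ZAT6 without 1 or 3). Those of ZAT11 and ZAT12 were also lost with 200 reference genes and on nuclear RPM without reference genes. Over 0 to 60 min ZAT10 (0.90, limma adjusted p = 0.00248), AZF2 (0.90, limma adjusted p = 0.00319) and CTH (0.96, limma adjusted p = 0.00188) were called flatter. In that window the ZAT6 call was lost, at -0.14 (limma adjusted p = 0.397). Over 30 to 120 min AZF2 was called steeper, at -0.33 (limma adjusted p = 0.00827). For vcs sov against vcs and for sov against WT limma called 0 of 8, with 1 gene each at an unadjusted p under 0.05. In vcs sov against vcs 14.4% of all genes were called flatter and 1.05% steeper, and in sov against WT 0% and 0%. No count test was run on slopes.

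One straight line over 2 h hides the early phase. Over 0 to 30 min, a window chosen after the data were seen, the half-life of ZAT10 was 31.4 min in vcs sov, 30.1 in vcs, 16.6 in sov and 13.8 in WT. Over 30 to 120 min the order turned, at 69.5 min in vcs sov, 59.7 in vcs, 88.2 in sov and 115 in WT. For vcs against WT the slope difference of ZAT10 was 2.34 ± 0.441 per hour in the early window (limma adjusted p = 0.00599) and -0.48 in the later one (limma adjusted p = 0.000551), so over 0 to 120 min it averaged out to 0.09 ± 0.086 (limma adjusted p = 0.459). SZF1 had early half-lives of 74.7 min in vcs sov, 47.5 in vcs, 20.3 in sov and 18.3 in WT, and ZAT12 had 152 min in vcs sov, 34.9 in sov and 30.1 in WT. The vcs slope of ZAT12, at -0.371 ± 0.468 per hour, gave none. SZF2 had 42.0 min in vcs sov, 36.2 in vcs, 32.9 in sov and 26.9 in WT. Its early slope differences of 0.39 ± 0.364 in vcs sov against sov (limma adjusted p = 0.511) and 0.57 ± 0.364 in vcs against WT (limma adjusted p = 0.533) were not called. For vcs sov against sov the early slope was flatter by 2.15 ± 0.544 for SZF1 (limma adjusted p = 0.0199), 1.69 ± 0.441 for ZAT10 (limma adjusted p = 0.0233) and 1.33 ± 0.345 for ZAT12 (limma adjusted p = 0.0234). For vcs against WT that of ZAT12 was flatter by 1.62 ± 0.345 (limma adjusted p = 0.0151), while SZF1 missed the threshold at 2.01 ± 0.544 (limma adjusted p = 0.0637).

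**Figure D4:**
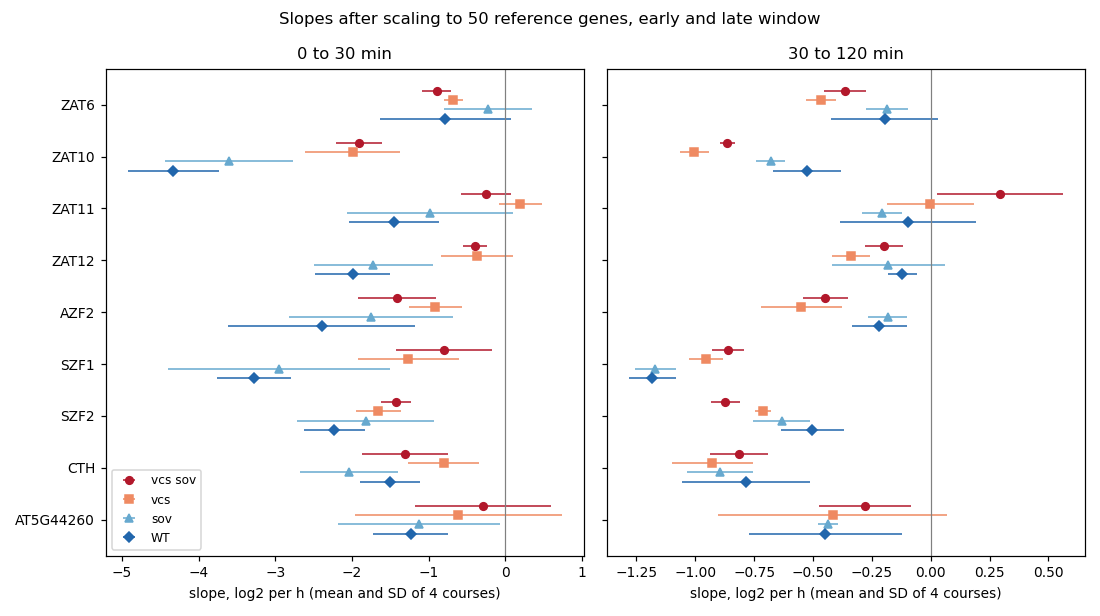
Decay slopes in log2 units per hour over 0 to 30 min and over 30 to 120 min, by gene and genotype, as means with bars of 1 SD over 4 courses; lower is faster decay. ZAT10 and SZF1 fall fastest in sov and WT in the early window, and for ZAT10 the order of genotypes is turned in the later window.

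The members' profiles over the 32 group means were compared as a description. ZAT6 and ZAT12 had a Pearson correlation of 0.945, ZAT10 and SZF2 one of 0.961, ZAT10 and SZF1 one of 0.938, while ZAT11 was negative with all others, between -0.426 and -0.097. The 32 groups share genotypes and libraries' scale, so these values carry no test. The genes outside the 9 with the profile most like their mean were AT5G65660 at 0.985, AT4G16430 at 0.983, AT3G19540 at 0.982, AT4G25620 at 0.982 and AT3G11760 at 0.981.

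Related genes were taken from lists set by gene family or role. The lists were chosen with earlier results of these data known, so their counts are a description and no independent support. Of 16 other C2H2 genes of the ZAT and AZF type, 10 were tested at 0 min in vcs sov against sov, and 9 were higher and none lower, with a median of 0.991, where 42.5% of all genes were called higher and 27.1% lower. Those with the largest differences were AT2G28200 with 30.5 nuclear RPM in vcs sov and 12.5 in sov, ZAT7 (AT3G46090) with 13.7 in vcs sov and 6.91 in sov, AT3G53600 with 5.72 in vcs sov and 2.56 in sov, and AT5G03510 with 13.6 in vcs sov and 6.51 in sov. ZAT7 and AT3G46080 belong to a tandem cluster of similar genes, and how reads were split between them is uncertain. At 15 min in WT, 2 of 11 had fallen, ZF3 by 1.12 ± 0.212 (limma adjusted p = 6.78e-05) and AT3G46080 by 1.04 ± 0.304 (limma adjusted p = 0.0282). AT3G46080 had only 0.519 nuclear RPM at 15 min and 1.56 at 0 min.

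Of 7 other CCCH genes with the same finger arrangement, 6 were tested and all 6 had risen in vcs sov against sov (median 1.474), against the same 42.5% of all genes. SOM, a repressor of light-dependent seed germination, had 16.2 nuclear RPM in vcs sov and 1.24 in sov, a log2 difference of 3.29 ± 0.222 (limma adjusted p = 3.48e-10). OZF2 had 22.5 nuclear RPM in vcs sov and 5.66 in sov, OZF1 12.1 in vcs sov and 3.34 in sov, and OXS2 260.4 in vcs sov and 105.4 in sov. None of the 6 was called at 15 min in WT. In vcs against WT, 6 of the 10 C2H2 and 5 of the 6 CCCH genes were higher and none lower, where 36.3% of all genes were higher and 13.1% lower.

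Of 16 genes of stress signalling, corepression and antioxidant defence, 10 were higher and 2 lower in vcs sov against sov, with a median of 0.414, against 42.5% higher and 27.1% lower among all genes. AT5G64220, a calmodulin-binding transcription activator, had 208.6 nuclear RPM in vcs sov and 79.5 in sov, the heat shock factor HSF A4A 63.8 in vcs sov and 26.3 in sov, and the kinase MKK5 32.7 in vcs sov and 14.9 in sov. The ascorbate peroxidase gene APX2 had 4.94 nuclear RPM in vcs sov and 0.124 in sov, the sov value being below the limit of 3 reads. It was also the 1 gene of this list called at 15 min in WT, where it was higher, with 2.75 nuclear RPM at 15 min and 0.0581 at 0 min.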

How the data were processed

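Per the labels' protocols, RNA depleted of ribosomal RNA was made into stranded TruSeq libraries. The submitters' processing notes name Bowtie2 2.2.3, TopHat2 2.0.12, HTSeq 0.6.1, R 3.1.0 and the build TAIR10; the strand setting of the counting is not given in the sources used here. The authors deposited RPM (reads per 1000000) for each library, and a table with RPKM, log2 fold changes, adjusted p-values, a mean normalized signal per gene (not used) and scaled means (ratios to 0 min). Whole reads were recovered from the RPM values (100% within 0.001 reads of a whole number). RPM was rescaled to nuclear genes, and log2(nuclear RPM + 0.5) was tested with limma 3.58.1 in R 4.3.3 (trend, robust, two-sided), with Benjamini-Hochberg adjustment over all genes tested and a threshold of 0.05; 0 min and the full course had separate fits. A gene needed a mean of 1 RPM in at least 1 group. Fold changes on this scale understate those of low genes. Slopes were scaled to 50 reference genes, those with the highest mean slopes in these libraries among genes at 10 RPM or more, and were tested for genes whose 0 min mean reached 2 RPM in each genotype. The limit of 3 reads was 0.0803 to 0.261 RPM and covers counting error only. edgeR 4.0.16 on the recovered reads, other scales, pseudocounts, filters and windows, and each replicate left out were alternatives. The tests were tried on simulated data. Named genes outside the 9 were up to 4 per list with the largest called change in vcs sov against sov at 0 min, up to 3 called in WT at 15 min, and the 5 nearest profiles. Members and lists were chosen with earlier results of these data known. Promoters were matched by locus tag to RefSeq TAIR10.1.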

Additional observations from a re-analysis of the deposited data

Results flagged for a closer look

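In 8 of 288 groups of 4 libraries, 1 library stood apart from the other 3 by Dixon's criterion, where chance gives about 1 in 20 groups, and 5 of the 8 were replicate 1. Replicate 1 was the highest for ZAT6 in sov at 120 min, with 42.11 nuclear RPM beside 36.73 to 37.07, for ZAT6 in WT at 0 min, with 48.41 beside 33.99 to 35.71, and for AZF2 in WT at 0 min, with 43.16 beside 19.22 to 23.29. It was also the highest for ZAT12 in vcs at 7.5 min, with 68.45 beside 65.09 to 65.22, and for AZF2 in vcs at 480 min, with 34.23 beside 22.05 to 23.91. Replicate 4 was the highest for ZAT11 in WT at 30 min, with 16.52 beside 10.43 to 11.23, and replicate 2 for ZAT12 in vcs sov at 7.5 min, with 117.6 beside 88.67 to 91.99. Replicate 3 was the lowest for AT5G44260 in vcs sov at 480 min, with 2.647 beside 4.174 to 4.266.

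The effect of vcs at 0 min differed with the SOV allele by a tested interaction, in log2 units, of 0.885 for ZAT6, 0.798 for ZAT10, 1.02 for ZAT12, 1.53 for AZF2 and 1.08 for SZF2. The AZF2 and ZAT10 calls were lost without replicate 2, 3 or 4, and edgeR lost that of ZAT10. Slopes over 0 to 120 min differed in vcs sov against sov by -0.332 for ZAT6, 0.537 for ZAT11, 0.334 for ZAT12, 0.748 for SZF1 and 0.382 for CTH. In vcs against WT they differed by -0.224 for ZAT6, 0.405 for ZAT11, 0.175 for ZAT12 and 0.675 for SZF1.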

How the results depend on the processing

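Leaving out each replicate in turn, the called genes of the 9 at 0 min numbered 6 to 6 in vcs sov against sov (7 with all libraries), 2 to 6 in vcs sov against vcs (5), 2 to 4 in vcs against WT (4) and 3 to 5 for the interaction (5). For 480 against 120 min they numbered 2 to 2 in vcs sov (2), 3 to 5 in vcs (6), 0 to 3 in sov (2) and 2 to 4 in WT (5), and for slopes 5 to 5 in vcs sov against sov (5) and 2 to 3 in vcs against WT (4). Calls over all later times against 0 min numbered 22 to 27 in vcs sov (27), 24 to 27 in vcs (28), 32 to 38 in sov (35) and 32 to 34 in WT (38). For 480 against 120 min, scaling to 50 reference genes gave 4 in vcs sov, 3 in vcs and 1 in sov, edgeR gave 5 in vcs sov, and a pseudocount of 0.1 gave 4 in sov. The 15 min change of vcs against WT had 1 call with a pseudocount of 1, and 1 in edgeR. Slopes over 0 to 30 min gave 3 calls in vcs sov against sov, and 200 reference genes 2 in vcs against WT. Over all alternatives other than leaving out a replicate, slope calls numbered 3 to 7 in vcs sov against sov and 2 to 6 in vcs against WT.

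Within a genotype, same-numbered libraries correlated above 0.1 in 105 of 112 cases, and 110 of the 112 correlated best with their own number. Between genotypes at 0 min, the pairing was weaker, with same-numbered libraries above 0.1 in 10 of 16 cases. The main fits held no term for replicate. With the replicate block, 6 genes were called for 480 against 120 min in vcs sov and 4 in sov, and 2 for the 15 min change of vcs against WT (ZAT10 and ZAT12). The block also called SZF1 for the interaction (0.80, limma adjusted p = 0.0339), AZF2 and SZF2 lower in WT at 7.5 min (limma adjusted p = 0.0217 and 0.0461), and, for 480 against 120 min, AZF2 in vcs sov (0.41, limma adjusted p = 0.0235) and vcs (0.37, limma adjusted p = 0.0276) and CTH in sov (0.41, limma adjusted p = 0.0178).

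Signs turned on the reference scale for ZAT12 in vcs sov at 120, 240 and 480 min (-0.50 each) and in vcs at 240 (-0.58) and 480 min (-0.46), and for ZAT11 (-0.03) and AT5G44260 (-0.56) in vcs sov at 480 min. They also turned for ZAT6 in sov at 60 (-0.07), 120 (-0.40), 240 (-0.58) and 480 min (-0.55) and in WT at 60 (-0.53), 120 (-0.74), 240 (-0.89) and 480 min (-0.94), for ZAT11 in sov at 60 (-0.53) and 120 min (-0.85), and for AZF2 in sov at 240 (-0.97) and 480 min (-0.90). On RPM as deposited ZAT6 in WT at 480 min was -0.29. In edgeR, ZAT12 against 0 min was 0.50 in sov at 240, 0.61 in sov at 480 and 0.42 in WT at 480 min, ZAT11 in WT at 480 min 0.20, and for 480 against 120 min SZF2 in sov was 0.03, ZAT6 in WT 0.41 and ZAT10 in WT 0.05. EdgeR called those of ZAT12 higher (adjusted p = 0.00135, 0.000107 and 0.00785, in the order given) and that of ZAT6 (adjusted p = 0.0312). Slope differences turned in other windows, for vcs sov against sov to -0.02 for ZAT12 (30 to 120 min) 0.57 for AZF2 (0 to 60 min) and 0.39 for SZF2 (0 to 30 min). For vcs against WT they turned to 0.11 for ZAT6 (0 to 30 min), -0.30 and -0.48 for ZAT10 and -0.09 and -0.22 for ZAT12 (15 to 120 and 30 to 120 min), -0.33 for AZF2 (30 to 120 min) and 0.12 and 0.57 for SZF2 (0 to 60 and 0 to 30 min). The causes were not tested.

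Over all genes, the count of calls moved by over 1.5 times in 23 of 36 comparisons on the reference scale, in 17 of 45 with the block and in 5 to 13 of 45 without 1 replicate. AT5G44260, with few reads, is the gene that depth limits most.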
